A study of Mus musculus with 6 samples.

Results

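The C/EBP family loci were the 6 mouse genes *Cebpa*, *Cebpb*, *Cebpd*, *Cebpe*, *Cebpg* and *Cebpz*, each placed in the 500 kb window (bin) of the genome that holds its transcription start site. *Cebpa* and *Cebpg* shared a bin on chromosome 7, so the 6 genes lay in 5 bins, of 4727 autosomal bins measured in every condition and 5455 bins in all. The family was chosen by the compartment and profile values that the chromosome 7 bin shows in these same matrices, so those values are a description and not a test. The nuclear architecture was measured by Hi-C, which ligates and counts pairs of DNA fragments that lie close together in the nucleus. The cells were C2C12, an immortal mouse line of skeletal muscle myoblasts that fuse into myotubes when serum is lowered.

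The 3 conditions were proliferating myoblasts, myotubes and AraC-treated myotubes. Myoblasts were plated sparsely and collected after 72 h of proliferation (day 0). Cultures for both kinds of myotubes were plated densely and also had 72 h of proliferation before differentiation medium with horse serum. Myotubes were kept until day 3 in that medium, and such cultures still contain unfused myoblasts. AraC-treated myotubes were kept to day 7 and received cytosine arabinoside, a cytidine analogue that kills dividing cells, at 10 µg/mL from day 3. AraC treatment and the longer culture therefore cannot be told apart. Plating density and medium differed between myoblasts and both differentiated cultures, so they cannot be told apart from differentiation. Values below follow that order of conditions unless named. Each condition had 2 replicates, whose labels name the same single matrix, so each matrix was taken to pool both. The differences below have no replicate spread, no test and no standard error, and each is set against the autosomal bins instead. The matrices hold correlation coefficients between the interaction profiles of pairs of bins rather than read pairs. A high coefficient means similar profiles and does not show that the bins touch. The depth behind a value cannot be read from the coefficients. The study's own totals of read pairs per pooled library are not used here.

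The C/EBP proteins are basic leucine zipper transcription factors that bind DNA as homodimers or as heterodimers with each other and with related factors. C/EBPβ and C/EBPδ act early and C/EBPα late in the making of adipocytes, C/EBPα is also needed in liver and in myeloid progenitors, and C/EBPε acts in late granulocytes. C/EBPγ lacks a transactivation domain and works mainly as a dimer partner. In muscle, C/EBPβ is expressed in satellite cells and has to fall for differentiation to proceed. *Cebpz* carries the family's name for binding to CCAAT sequences, but its product has no leucine zipper and belongs to a conserved family of nucleolar proteins.

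All positions are those of the mm10 (GRCm38) build, with genes from GENCODE M21. *Cebpa* (ENSMUSG00000034957.10, chr7:35119293-35121928, plus strand) and *Cebpg* (ENSMUSG00000056216.9, chr7:35046422-35056573, minus strand) lay in the bin chr7:35000001-35500000. *Cebpb* (ENSMUSG00000056501.3, chr2:167688915-167690418, plus strand) lay in chr2:167500001-168000000. *Cebpd* (ENSMUSG00000071637.5, chr16:15887286-15891031, plus strand) lay in chr16:15500001-16000000. *Cebpe* (ENSMUSG00000052435.7, chr14:54710360-54712174, minus strand) lay in chr14:54500001-55000000. *Cebpz* (ENSMUSG00000024081.9, chr17:78919006-78937066, minus strand) lay in chr17:78500001-79000000.

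Every ligated fragment end in these libraries began at a HindIII site. The nearest site to each start is shown on the plus strand with the enzyme's recognition letters in capitals, because it is the closest point at which contacts of that gene could be read. The sites lay 2077 bp (*Cebpa*), 1451 bp (*Cebpg*), 3273 bp (*Cebpb*), 2000 bp (*Cebpd*), 1099 bp (*Cebpe*) and 348 bp (*Cebpz*) from the start.
Cebpa, chr7:35121359-35121386: ggagttatgacAAGCTTcccaaatattt
Cebpg, chr7:35055111-35055138: gaaacaggctcAAGCTTtttttcagctc
Cebpb, chr2:167692177-167692204: agctggaccacAAGCTTggagacagagc
Cebpd, chr16:15889275-15889302: gatactggctgAAGCTTtacagaacaat
Cebpe, chr14:54711064-54711091: gtctgagaccaAAGCTTtctatcatgct
Cebpz, chr17:78937403-78937430: ggcatccttacAAGCTTtaggctgcttg
The annotation placed the *Cebpa* site in the untranslated part of that gene, the *Cebpd* site in the untranslated parts of *Cebpd* and *Spidr*, and the *Cebpe* and *Cebpg* sites in introns of those genes. The *Cebpz* site fell in an intron of its neighbour *Ndufaf7*, and the *Cebpb* site fell outside protein-coding genes. The whole bins held 132 (*Cebpa*/*Cebpg*), 126 (*Cebpb*), 159 (*Cebpd*), 134 (*Cebpe*) and 164 (*Cebpz*) sites, against a median of 162 over autosomal bins. The *Cebpb* bin was the most GC-rich of the 5, at 52.0% against a median of 41.7%, and the *Cebpa*/*Cebpg* bin stood at 48.1%. The *Cebpb*, *Cebpa*/*Cebpg* and *Cebpe* bins had fewer sites than most (percentiles 5.94, 8.50 and 9.39), and the part of site density in the values below was not tested.

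The promoters of *Cebpa* and *Cebpg* are shown because both genes lie in the bin whose compartment differed between conditions. Each is the 250 bases before the start in RefSeq (GRCm38.p6), in the gene's own direction, with CCAAT boxes (CCAAT, or ATTGG on the other strand) and TATAAA in capitals.
Cebpa, chr7:35119043-35119292, plus strand: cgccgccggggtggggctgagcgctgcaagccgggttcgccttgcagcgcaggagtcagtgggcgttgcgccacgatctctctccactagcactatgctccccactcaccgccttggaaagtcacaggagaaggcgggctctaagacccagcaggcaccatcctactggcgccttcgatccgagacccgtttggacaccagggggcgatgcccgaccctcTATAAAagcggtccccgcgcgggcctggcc
Cebpg, chr7:35056567-35056816, minus strand: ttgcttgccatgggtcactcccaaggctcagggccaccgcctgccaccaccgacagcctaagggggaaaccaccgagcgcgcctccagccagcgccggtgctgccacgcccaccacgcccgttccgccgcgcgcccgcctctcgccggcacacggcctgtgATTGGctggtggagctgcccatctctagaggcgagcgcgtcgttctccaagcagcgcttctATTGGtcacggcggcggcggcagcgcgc
The *Cebpg* promoter held 2 CCAAT boxes, at positions -89 and -28, and the *Cebpa* promoter held TATAAA at position -30 and no CCAAT box. CCAAT, on either strand, occurred in 33.8% of the 32817 promoters of the table and TATAAA in 12.4%. The C/EBP consensus TTGCNNAA, found in 5.14% of all promoters, occurred in neither. The *Cebpb* promoter held none of these motifs. Promoters of *Cebpd*, *Cebpe* and *Cebpz* are not shown. A match is only a match of letters, and promoters were not resolved within a 500 kb bin.

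Interphase chromosomes separate into an A compartment, which is gene-rich and open, and a B compartment, which is gene-poor and closed, and each prefers contacts with its own kind. The compartment was read from the first principal component (PC1) of each chromosome's matrix, with positive values called A, and PC1 was divided by its standard deviation (SD) over autosomal bins of the same condition. The *Cebpa*/*Cebpg* bin stood at 0.66 in myoblasts, at -0.26 in myotubes and at -0.36 after AraC. It lay in A in the proliferating cells and in B in both differentiated cultures. The difference from myoblasts was -0.92 in myotubes (7 of 4727 bins had a lower difference) and -1.02 in AraC-treated myotubes (8 had a lower difference). In myotubes the bin was near the middle of the autosomal bins (percentile 55.1, from 77.9 in myoblasts), so its B value was a shallow one. Besides the 2 C/EBP genes the bin holds *Slc7a10* and *Slc7a9*, which encode amino acid transporters, *Faap24* of the Fanconi anaemia DNA repair pathway, *Cep89*, *Lrp3*, *Gpatch1* and *Rhpn2*, and a bin has a single value for all of them.

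The *Cebpb* bin, which also holds *Snai1*, *Ube2v1*, *Gm20431*, *Tmem189* and *Ptpn1*, was in strong A throughout. Its PC1 was 2.04, 2.21 and 1.83 in the 3 conditions. AraC-treated myotubes differed from myotubes by -0.39, and 59 of 4727 bins had a lower difference, while the bin was still above 92.1% of all bins. The *Cebpe* bin stood at 0.83, 1.03 and 1.02 in the same order and was A in every condition. It holds 26 protein-coding starts, from *Prmt5* to *Myh7*. The *Cebpd* bin, shared with *Ube2v2*, *Mcm4*, *Prkdc* and *Mzt2*, was weakly A at 0.44, 0.42 and 0.60. The *Cebpz* bin was B at -0.31, -0.28 and -0.44, and holds *Vit*, *Strn*, *Heatr5b*, *Gpatch11*, *Eif2ak2*, *Sult6b1*, *Cebpzos* and *Ndufaf7*. In myoblasts the order from highest was *Cebpb*, *Cebpe*, *Cebpa*/*Cebpg*, *Cebpd* and *Cebpz*, and in both differentiated cultures *Cebpa*/*Cebpg* ranked below *Cebpd* and just above *Cebpz*. With pooled matrices there is no spread by which neighbours in this order could be separated.

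From myoblasts to myotubes, 1 of the 5 bins left A and 0 entered it, beside 4.55% (A to B) and 2.77% (B to A) of all autosomal bins. From myoblasts to AraC-treated myotubes the counts were again 1 and 0, beside 6.52% and 3.72%. Between myotubes and AraC-treated myotubes no C/EBP bin changed, beside 3.07% and 2.05%. The chromosome 7 bin is the reason the family was chosen, and nothing is read from these counts.

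**Figure D1:**
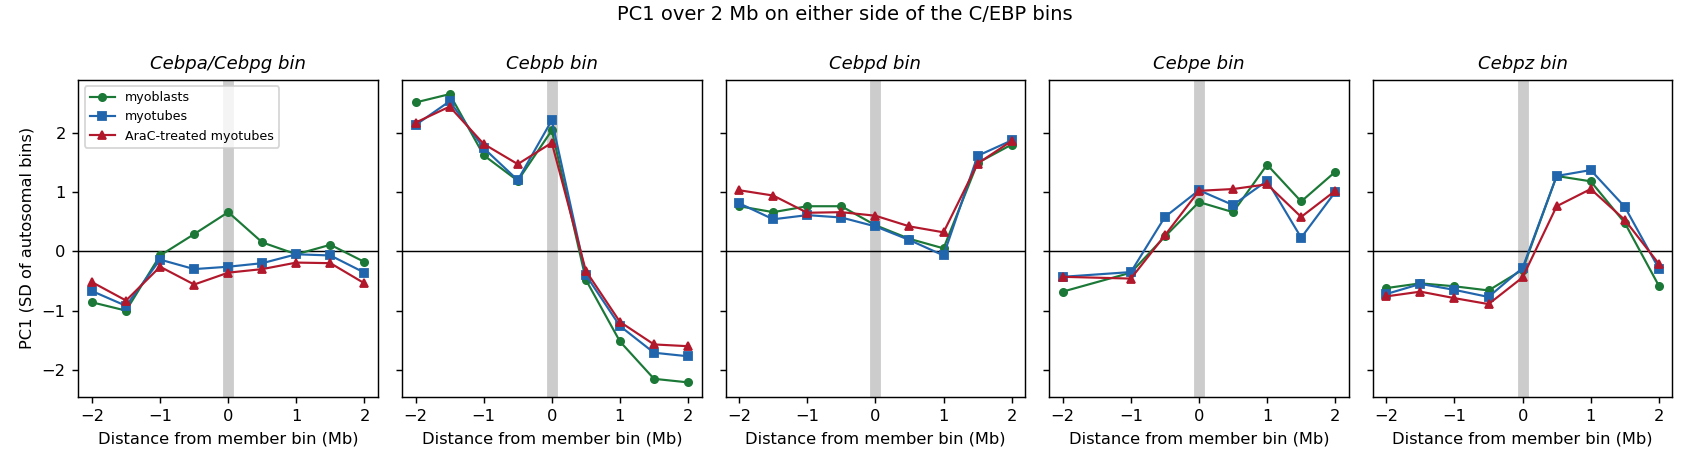
PC1 divided by its autosomal SD (vertical axis) against distance in Mb from the bin of each C/EBP gene (horizontal axis, grey bar at 0), with 1 line per condition. The *Cebpa*/*Cebpg* bin is 0.66 in myoblasts and lies below 0 in myotubes (-0.26) and AraC-treated myotubes (-0.36), while the lines of the other bins run close together.

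The windows of 2 Mb on either side placed the bins in different surroundings. Around *Cebpa*/*Cebpg*, 4 of 9 bins were A in myoblasts and 0 of 9 in either differentiated culture. The bin before, with *Kctd15*, *Chst8* and *Pepd*, stood at 0.29, -0.30 and -0.56. The bin after, with *Tdrd12*, *Nudt19*, *Rgs9bp*, *Ankrd27*, *Pdcd5*, *Dpy19l3* and *Zfp507*, stood at 0.15, -0.20 and -0.30. The other bin that changed sign lay 1.5 Mb after, held *Tshz3* alone, and stood at 0.11, -0.07 and -0.20. The peak of A in myoblasts was therefore on the bin of *Cebpa* and *Cebpg* and weaker on both sides. Outside it, the bins of the *Scgb* secretoglobin cluster upstream, centred 1.5 Mb and 2.0 Mb before, were B in all 3 conditions.

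*Cebpb* sat on a compartment edge that lay at the same bin in all 3 conditions. Its window had 5 of 9 bins in A in each condition, and the next bin, with *Pard6b*, *Adnp* and 5 other genes, was B at -0.48, -0.40 and -0.33. *Cebpz* sat on the B side of an edge, and the next bin, with *Prkd3*, *Qpct* and *Cdc42ep3*, was A at 1.27, 1.27 and 0.76. Around *Cebpd*, 9, 8 and 9 of 9 bins were A in myoblasts, myotubes and AraC-treated myotubes. Around *Cebpe*, 6 of 8 measured bins were A in every condition. A bin 1.5 Mb after *Cebpe*, with the *Mcpt* mast cell protease and *Gzm* granzyme genes, stayed in A while its PC1 ran 0.84, 0.23 and 0.58.

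The profile correlation asks how alike the whole row of a bin is in a pair of conditions. It is Pearson's r over the other bins of the same chromosome. Below 0, the bins with high coefficients in a condition tend to have low coefficients in the other. For *Cebpa*/*Cebpg* r was -0.447 when myoblasts were set against myotubes and -0.520 when they were set against AraC-treated myotubes. It was 0.911 for the pair of differentiated cultures. Only 0.275% and 0.508% of autosomal bins had a lower r in the comparisons with myoblasts, whose medians were 0.877 and 0.839. That last value lay at percentile 28.4, with a median of 0.947. Bins with r below 0 made up 3.28%, 5.80% and 1.16% of the autosomal bins in the 3 comparisons, and 1, 1 and 0 of the 5 C/EBP bins did. The adjacent bins had r of 0.0693 and 0.377 between myoblasts and myotubes, so in the window only the bin of *Cebpa* and *Cebpg* was negative.

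The *Cebpb* row was among the most alike, at 0.957, 0.941 and 0.984 (percentiles 93.3, 94.6 and 95.1). The *Cebpe* row stood close to the autosomal median at 0.871, 0.855 and 0.956. *Cebpd*, at 0.678, 0.669 and 0.825, and *Cebpz*, at 0.775, 0.630 and 0.835, were less alike than most bins but far from 0. The *Cebpd* and *Cebpz* bins have PC1 values near 0, and so has the *Cebpa*/*Cebpg* bin in the differentiated cultures (-0.26 and -0.36). The part of this in the r of the 3 bins, including the negative values of *Cebpa*/*Cebpg*, was not tested.

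**Figure D2:**
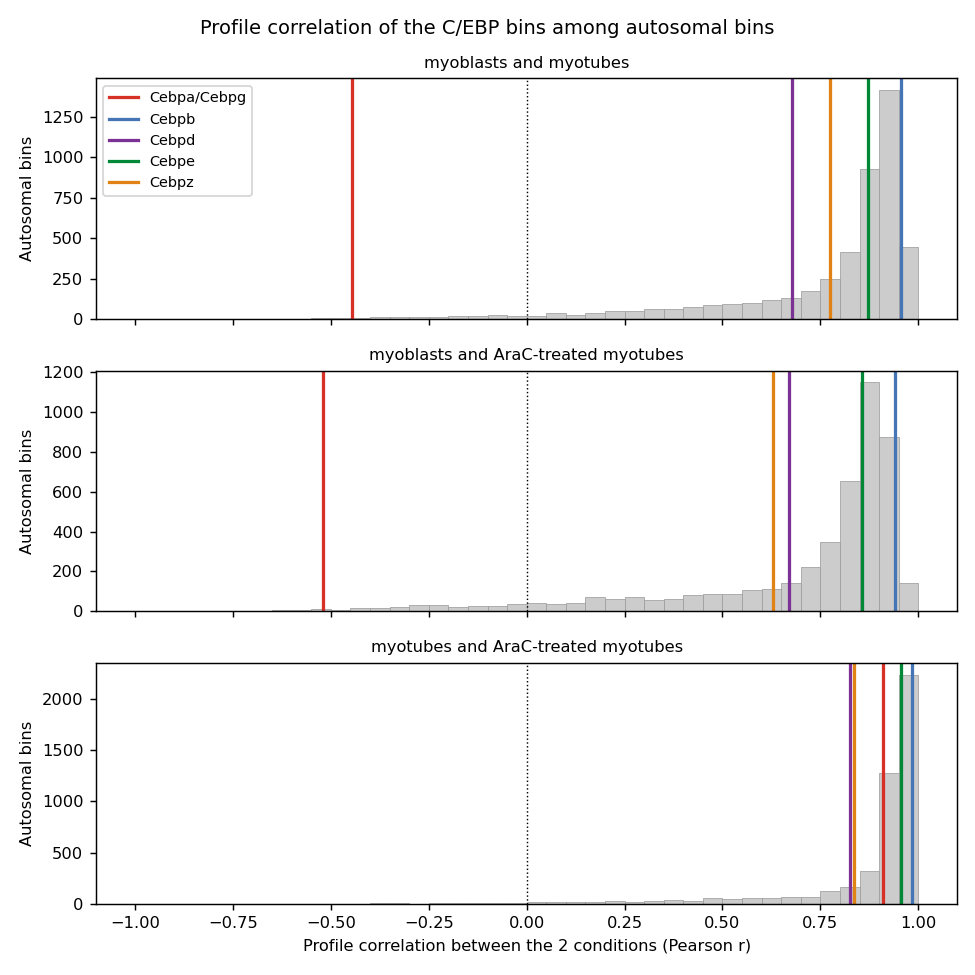
Histograms of the profile correlation over 4727 autosomal bins (horizontal axis, Pearson's r; vertical axis, number of bins) for each pair of conditions, with vertical lines at the C/EBP bins. The *Cebpa*/*Cebpg* line lies at -0.447 and -0.520 in the comparisons with myoblasts and at 0.911 between the differentiated cultures.

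The partners of the *Cebpa*/*Cebpg* bin along chromosome 7 differed by compartment between conditions. Over 2 Mb away there were 81 bins that were A in all 3 conditions and 152 that were B in all 3. In myoblasts the coefficient was above 0 with 75 of the 81 A bins and 50 of the 152 B bins. Myotubes had 25 A bins and 151 B bins above 0, and AraC-treated myotubes had 25 and 152. The median coefficient with A bins was 0.0308, -0.0364 and -0.0345 across the conditions. With B bins it was -0.00964, 0.0636 and 0.0587. These coefficients come from the same rows as PC1 and the profile correlation, so they describe the same difference and are not further evidence of it.

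**Figure D3:**
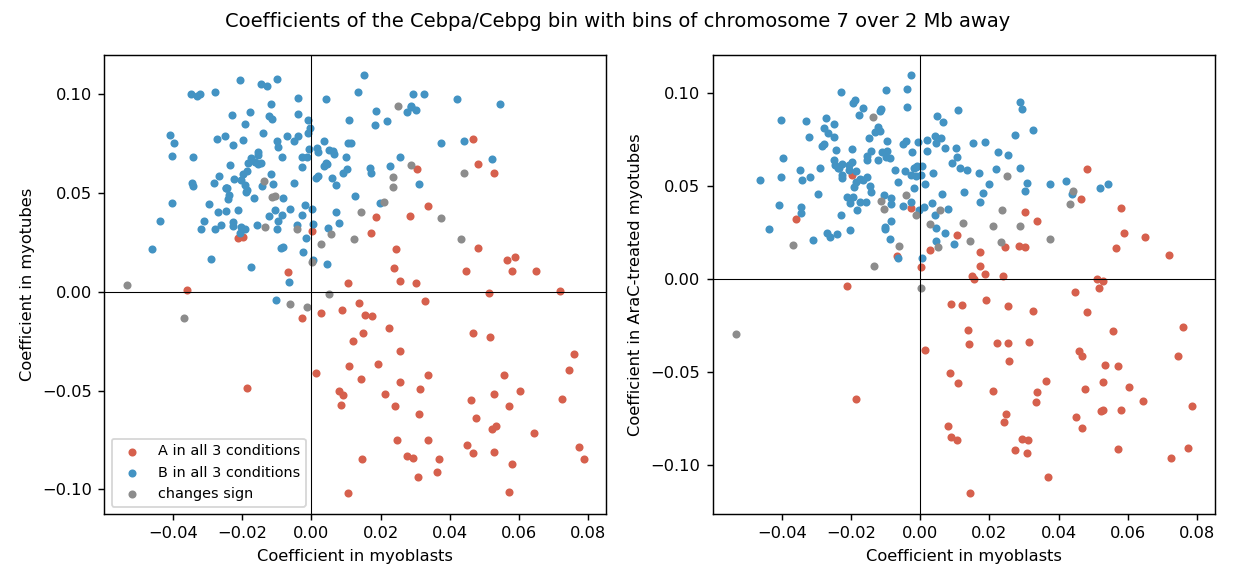
Coefficient of the *Cebpa*/*Cebpg* bin with each bin of chromosome 7 over 2 Mb away, in myoblasts (horizontal axis) against myotubes (left) or AraC-treated myotubes (right, vertical axis). Bins that are A in all 3 conditions (red, 81) lie mostly at lower right and bins that are B in all 3 (blue, 152) mostly above 0 on the vertical axis.

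Coefficients with other chromosomes were summarized as the mean with stable A bins minus the mean with stable B bins, in SD of all coefficients between chromosomes. For *Cebpa*/*Cebpg* this difference was 0.79, -0.91 and -1.12 in the 3 conditions. Relative to myoblasts this was -1.70 in myotubes (18 of 4727 bins were lower) and -1.91 in AraC-treated myotubes (15 were lower). The mean coefficient of the bin was higher with A than with B regions of other chromosomes in myoblasts and lower in both differentiated cultures. *Cebpb* leaned to A most of the 5, at 3.44, 3.52 and 2.89. AraC-treated myotubes differed from myotubes by -0.63, with 65 bins lower, and its PC1 on chromosome 2 differed in the same direction. *Cebpe* stood at 1.53, 1.96 and 2.01. *Cebpd* stood at 0.57, 0.62 and 1.05, and *Cebpz* was below 0 throughout at -0.33, -0.58 and -0.63. Over all bins this difference had the sign of PC1 in 95.5% to 96.6% of bins, depending on the condition, so it describes the same difference as PC1 and is not further evidence of it.

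**Figure D4:**
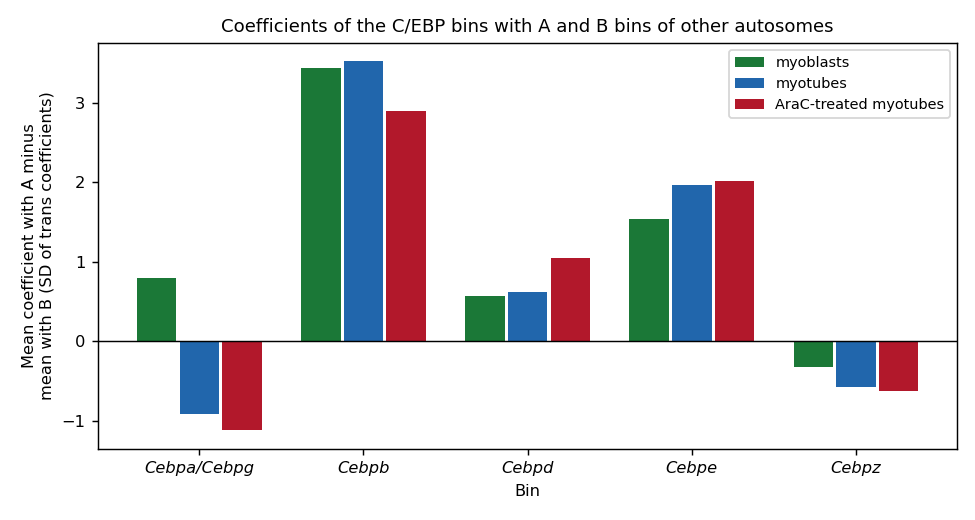
Mean coefficient with stable A bins minus mean with stable B bins of other autosomes (vertical axis, SD of coefficients between chromosomes) for each C/EBP bin and condition, 1 pooled matrix per bar and so no error bars. The *Cebpa*/*Cebpg* bars pass from 0.79 to -0.91 and -1.12, and the other 4 bins keep their sign.

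The 50 bins of other chromosomes with the highest coefficients were listed for each C/EBP bin and are called its partners. A partner has a similar interaction profile and was not shown to be in contact. For *Cebpa*/*Cebpg*, 49 of the 50 were A in myoblasts and 0 of 50 in either differentiated culture. Among all autosomal bins, 38.3%, 36.5% and 35.5% were A in the 3 conditions. The bin was chosen by its compartment values, so these counts describe the same difference as PC1 and are not further evidence of it. Myoblasts shared 0 of the 50 with either differentiated culture, and the differentiated cultures shared 7 of 50 with each other. The 50 were drawn from 4462 bins, and the overlap for autosomal bins at large was not counted. The *Cebpz* bin, B in every condition, shared 2 (myoblasts and myotubes), 0 (myoblasts and AraC-treated myotubes) and 5 (the differentiated cultures). A low overlap was therefore not particular to *Cebpa*/*Cebpg*, and nothing is read from it. In myotubes the partner of *Cebpa*/*Cebpg* with the highest coefficient was the *Sorcs3* bin chr19:48000001-48500000 (0.123, from -0.0211 in myoblasts). In AraC-treated myotubes it was chr16:90000001-90500000 (0.109), with *Tiam1*, *Sod1*, *Scaf4* and *Hunk*. The median partner held 11 protein-coding starts in myoblasts, 2 in myotubes and 1 after AraC, beside a median of 2 over autosomal bins. The sign of PC1 was set by the density of such starts, so this follows from the compartment of the partners.

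The partners of *Cebpb* were A bins in all 50 places in every condition, and 20 of the 50 were shared by all 3. Its highest partner was the *Larp4*, *Racgap1* and *Smarcd1* bin chr15:99500001-100000000 in myoblasts (0.287). In myotubes it was chr10:80500001-81000000 (0.415), a bin with *Dot1l* and *Gadd45b*, and in AraC-treated myotubes chr3:89500001-90000000 (0.277), with *Adar* and *Il6ra*. *Cebpe* also had 50 of 50 partners in A in each condition, with 7 shared by all 3, and its highest in myoblasts was the same *Dot1l* bin (0.152). Its highest partners were chr19:3500001-4000000 with *Lrp5* in myotubes (0.248) and chr11:85000001-85500000 with *Ppm1d* in AraC-treated myotubes (0.207). *Cebpd* had 49, 50 and 50 partners in A but shared only 1 across all 3 conditions. They were led by chr4:45000001-45500000 with *Exosc3* (0.0873), chr1:183000001-183500000 with *Disp1* (0.128) and chr1:88500001-89000000 with *Arl4c* (0.126). *Cebpz* had 5, 4 and 4 partners in A and shared 0 across the 3. They were led by chr8:88500001-89000000 with *Nod2* and *Cyld* (0.0715), chr19:53000001-53500000 with *Mxi1* (0.109) and chr9:7500001-8000000 with *Birc2*, *Birc3* and a run of *Mmp* genes (0.0732). The highest coefficients of *Cebpa*/*Cebpg*, *Cebpd* and *Cebpz* were smaller than those of *Cebpb* and *Cebpe* in every condition, and the part of their size in the overlaps was not tested.

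The 5 bins lie on 5 chromosomes, so 10 coefficients join them. *Cebpb* and *Cebpe* had the highest, at 0.0565, 0.170 and 0.153 in the 3 conditions, which are percentiles 93.3, 97.3 and 97.5 of all 10547562 pairs between autosomes. *Cebpa*/*Cebpg* and *Cebpb* went from 0.0296 (percentile 78.7) to -0.0629 (20.2) and -0.0713 (16.1). With *Cebpd* the *Cebpa*/*Cebpg* coefficient went from 0.0411 to -0.00887 and -0.0104, and with *Cebpe* from 0.0337 to -0.0336 and -0.0178. With *Cebpz*, a B bin, it was 0.0382, 0.0466 and 0.00179. In myoblasts all 4 pairs of *Cebpa*/*Cebpg* were above 0, and in each differentiated culture only the pair with *Cebpz* was. Over the 10 pairs, 8, 5 and 4 were above 0 in the 3 conditions, and the median percentile was 74.5, 43.7 and 36.5. The share of all pairs above 0 was not counted. Coefficients above 0 still lay below the middle of all pairs. These were 0.00378 at percentile 47.5 (*Cebpd* and *Cebpe*, myoblasts) and 0.0131 at 48.4 (*Cebpe* and *Cebpz*, myotubes). After AraC, *Cebpa*/*Cebpg* with *Cebpz* was at percentile 44.9. Most of all pairs were therefore above 0 in each condition, and nothing is read from the counts above 0. The 4 pairs with *Cebpa*/*Cebpg* had a median percentile of 84.0, 32.9 and 36.5. They contain the bin for which the family was chosen, so their values describe the same difference as PC1 and are not further evidence of it. Ranked among pairs of A bins alone, the same 10 coefficients had a median percentile of 31.1, 11.9 and 6.18, below the middle in each condition. The *Cebpz* bin was B throughout and the *Cebpa*/*Cebpg* bin was B in the differentiated cultures. Pairs with these bins are therefore not pairs of A bins, and nothing is read from this ranking. The 3 pairs among *Cebpb*, *Cebpd* and *Cebpe* had a median percentile of 47.5, 58.2 and 71.2.

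**Figure D5:**
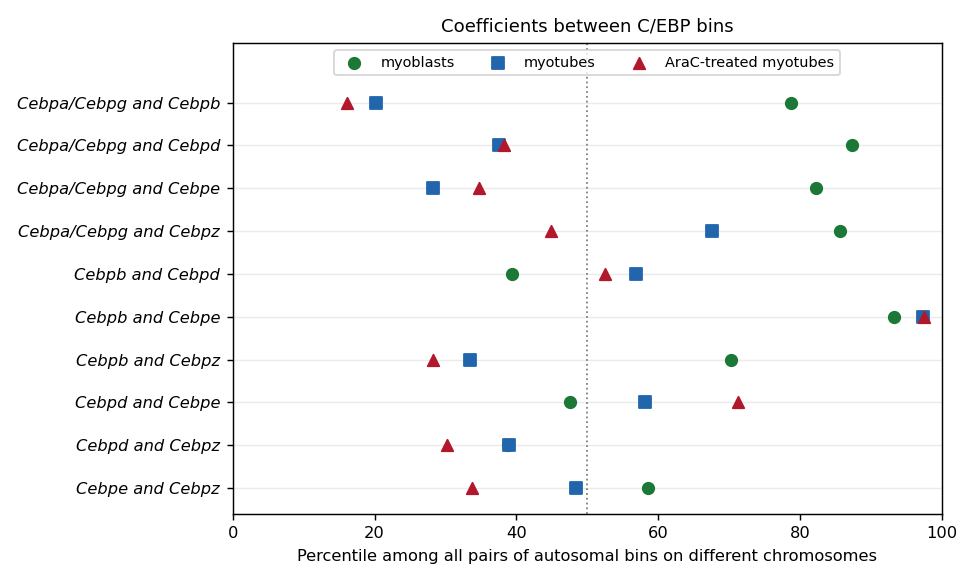
Percentile of each of the 10 coefficients between C/EBP bins among all pairs of autosomal bins on different chromosomes (horizontal axis, %), 1 symbol per condition, with a dotted line at the median. Pairs of *Cebpa*/*Cebpg* lie at percentiles 78.7 to 87.4 in myoblasts and 16.1 to 44.9 in AraC-treated myotubes, and *Cebpb* with *Cebpe* lies at 93.3 to 97.5.

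The autosomal bins most like each C/EBP bin were those with the smallest distance over the 3 PC1 values, among bins of other chromosomes with a protein-coding start. For *Cebpa*/*Cebpg* the nearest of 3358 was chr5:91000001-91500000 (distance 0.138 SD), which holds *Epgn*, *Ereg*, *Areg* and *Btc*, ligands of the EGF receptor family. Its PC1 was 0.55, -0.17 and -0.34 and its r -0.638, -0.643 and 0.881. The next was chr10:24000001-24500000 (0.186), with trace amine receptor genes from *Taar7d* to *Taar9*, *Stx7* and *Moxd1*, and then chr13:13500001-14000000 (0.227), with *Lyst*, *Gng4* and *B3galnt2*. In all 3 bins r with myoblasts was below 0 in both comparisons. They were picked by PC1 from the same matrices, so this r is not a separate trait that they share. Among the nearest to *Cebpb* were chr7:126500001-127000000 (0.128), with *Aldoa* and *Coro1a*, and chr4:141000001-141500000 (0.134), with *Epha2*. The nearest to *Cebpd* were bins with *Oat* (0.124), *Nup205* (0.135) and *Smoc2* (0.137). Those nearest to *Cebpe* held *Ivns1abp* (0.040), *Lef1* (0.054) and *Scamp1* (0.107), and those nearest to *Cebpz* held *Tnfrsf11a* (0.015), *Chga* (0.027) and *Nobox* (0.030).

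Partners, regulators and targets of the C/EBP proteins were followed in 9 lists of 104 genes in 99 bins. From myoblasts to myotubes 3 of the 104 left A and 3 entered it, beside 4.60% (A to B) and 2.80% (B to A) of 20360 protein-coding genes. From myoblasts to AraC-treated myotubes 3 left A and 8 entered it, beside 6.20% and 3.41%. Most changes were between values near 0, and no list was tested.

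Of the dimer partners, 14 of 14 were A in every condition, while 60.1%, 58.3% and 57.3% of all protein-coding genes were. Among them *Ddit3*, which encodes the stress factor CHOP, stood at 1.36, 1.85 and 1.55, and *Atf4* at 2.43, 2.31 and 2.38. Of 12 regulators upstream of C/EBP, 9 were A in myoblasts and 11 in both differentiated cultures. *Trib1*, whose product directs C/EBPα to degradation, stood at -0.03, 0.11 and 0.25, and *Klf5*, an activator of adipogenesis, at -0.10, 0.28 and 0.10. Of 11 genes listed around growth arrest by C/EBPα, whether they promote or oppose it, *Myc* alone changed sign, at -0.20, -0.12 and 0.04. The cyclin-dependent kinase inhibitor *Cdkn1a* was A at 2.20, 2.02 and 1.90.

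Of 12 adipocyte targets, 10 were A in myoblasts and 9 in both differentiated cultures. The gene that changed was *Cd36*, a fatty acid transporter, at 0.03, -0.24 and -0.29, while *Pparg*, the main regulator of adipogenesis, was A at 2.12, 1.88 and 1.94. Of 12 granulocyte and myeloid targets, 10, 10 and 12 were A. *Ltf*, which encodes lactoferrin of neutrophil granules, stood at -0.47, -0.07 and 0.57, and *Camp*, which encodes a granule peptide, at -0.62, -0.25 and 0.03, the last barely above 0. *Ngp*, a granule gene whose bin lies between these on chromosome 9, was A at 1.05, 1.38 and 1.40, and so were the 9 other genes of the list. The r of the *Ltf* bin was -0.346 between AraC-treated myotubes and myoblasts and -0.395 between AraC-treated myotubes and myotubes. Of 12 liver targets, 4, 5 and 5 were A, and *Fgb*, a fibrinogen chain, came to 0 at -0.20, 0.00 and 0.01. Of 10 inflammatory targets, 9, 7 and 7 were A. *Cxcl1*, a neutrophil chemokine, stood at 0.24, -0.28 and -0.55, and *Ptgs2*, which encodes cyclooxygenase 2, at 0.10, -0.05 and -0.06.

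Of 10 satellite cell and myogenic genes, 5, 5 and 6 were A. *Pax7*, the satellite cell regulator whose expression C/EBPβ maintains, was A at 1.92, 1.79 and 1.86. *Mstn*, which encodes the muscle growth inhibitor myostatin, stood at -0.26, -0.23 and 0.10. Of 12 nucleolar CBF and Noc family genes, *Cebpz* included, 8, 8 and 9 were A, and *Noc2l* stood at -0.31, -0.14 and 0.08. Skeletal muscle markers were A for 6, 7 and 7 of 12 genes (50.0%, 58.3% and 58.3%), beside 60.1%, 58.3% and 57.3% of all protein-coding genes. *Ttn*, which encodes titin of the sarcomere, went from -0.15 to 1.43 and 1.60 and alone changed sign. *Tnnt1* differed in the other direction, at 0.54, 0.17 and 0.16. *Myh1*, *Myh2* and *Myh4*, adult myosin heavy chain genes that share a bin, were B at -2.00, -1.30 and -0.91. Hi-C measures no RNA, so these values do not show which markers were expressed.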

How the data were processed

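Hi-C libraries cut with HindIII were made from 6 samples, 2 replicates of each of 3 conditions. Per the study's methods, the authors mapped and filtered read pairs with HiCUP and Bowtie and normalized the interactions with HOMER. The methods give the mouse reference a human build name, whereas the study's results name mm10, which was used here. They deposited 3 matrices of 500 kb bins. The methods describe matrices of this bin size for single replicates, but both replicates of a condition name the same file in the labels, so each matrix was taken to be pooled. The deposited values are score values with no physical unit: correlation coefficients between the interaction profiles of pairs of bins, used as given. The spread of coefficients between chromosomes was 0.0446, 0.0890 and 0.0732 SD in myoblasts, myotubes and AraC-treated myotubes, so values were scaled within each matrix. No column belonged to samples of another series (0).

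PC1 was taken per chromosome and matrix after centring the columns without scaling them, and A was assigned to the end with the higher density of protein-coding starts (GENCODE M21). The calculations, in NumPy 2.4.6 and SciPy 1.17.1 under Python 3.11.15 (figures in Matplotlib 3.10.9), were tested on simulated data. Bins of the X and Y chromosomes were left out of the background.

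No test was run, since each condition is 1 matrix. The members and lists were chosen with earlier results of these data known. Named besides the members were protein-coding genes of member bins, of bins within 2 Mb that changed sign, of the 3 most alike bins and of the highest partner bins, and list genes that changed sign. Of bins with many genes, a few were named, and other genes were chosen after their values were seen. Alternatives changed the scaling, the partner bins, the near-diagonal pairs, the correlation and the bin. A few bins that this rule would name are not reported here.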

Additional observations from a re-analysis of the deposited data

How the results depend on the processing

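No paired analysis was possible because each condition has a single matrix for its replicates, and for the same reason no replicate could be left out. With the columns scaled, pairs within 2 Mb left out, odd or even partner bins alone, or partners on other chromosomes alone, the PC1 of the *Cebpa*/*Cebpg* bin kept its sign and stayed within 1.5 times in every condition. Its profile correlation stayed negative with Spearman's correlation and with each other set of partners. Taking the adjacent bins in its place gave PC1 of 0.29 before and 0.15 after in myoblasts and -0.56 before in AraC-treated myotubes. It gave r of 0.0693 and 0.377 between myoblasts and myotubes and 0.0170 and 0.311 between myoblasts and AraC-treated myotubes, so 0 of the 5 adjacent bins on either side were negative, and the negative profile correlation rests on a single 500 kb bin. The bin after *Cebpb* turned to -0.48, -0.40 and -0.33 and the bin after *Cebpz* to 1.27, 1.27 and 0.76. With 100 partners in place of 50, *Cebpa*/*Cebpg* shared 1, 1 and 26 between conditions. The median percentile of the 10 coefficients between C/EBP bins was 31.1, 11.9 and 6.18 among pairs of A bins, though not all of the 10 pairs join A bins. For the other 4 bins, leaving adjacent bins aside, 60 of 60 PC1 values, 58 of 60 profile correlations, 36 of 36 differences between A and B partners and 16 of 24 partner overlaps stayed within 1.5 times, and none reversed. What depth limits was not assessed, since correlation coefficients do not show it and the study's totals of read pairs were not used.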

Other observations

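The bin most like that of *Cebpa* and *Cebpg* on chromosome 5, with the EGF family ligands *Epgn*, *Ereg*, *Areg* and *Btc* (91000001 to 91500000), directly follows the bin of *Cxcl1* (90500001 to 91000000), a gene of the inflammatory list. PC1 was 0.55, -0.17 and -0.34 in the ligand bin and 0.24, -0.28 and -0.55 in the *Cxcl1* bin for myoblasts, myotubes and AraC-treated myotubes. The profile correlation with myoblasts was below 0 in both bins, at -0.638 and -0.643 for the ligands and -0.0816 and -0.150 for *Cxcl1*. The neighbourhood was noticed after the values were seen.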
